A study of Mus musculus with 2 samples.

Results

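The cells described here are 88 wells with a high level of Muc2, the gene of the main gel-forming mucin of the intestine, chosen from 590 wells of a single-cell experiment on mouse small intestinal organoids. A well was selected when Muc2 had at least 2000 CPM (read counts scaled to 1000000 nuclear reads per well) and Neurog3 fewer than 3000 CPM, among wells with at least 2000 such reads and 500 genes with a read. ISX-9 (isoxazole 9, a small molecule known as an inducer of neuronal differentiation) was given to one culture for 48 h, and the solvent DMSO was given to the other for 48 h. Both cultures were organoids of jejunal and ileal epithelium that carry a homozygous red fluorescent reporter at Neurog3, whose transcription factor commits progenitors to the enteroendocrine lineage. Reporter-positive cells were sorted into 1 plate of 384 wells per treatment and sequenced by SORT-seq, in which RNA is primed at its poly(A) tail and each well has its own barcode. A fluorescent protein can outlast the transcript of the gene that drives it.

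Goblet cells are secretory cells of the intestinal epithelium that fill with granules of mucin and release them as the mucus gel that covers the epithelium. Mucins are folded and linked by disulphide bonds in the endoplasmic reticulum (ER), are coated with O-linked sugars in the Golgi and are stored packed with calcium. Goblet cells, Paneth cells and enteroendocrine cells all descend from crypt progenitors that express Atoh1, and the transcription factor Spdef is known for the maturation of goblet and Paneth cells.

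The members were 32 of 290 kept ISX-9 wells, which is 11.03% (exact 95% Clopper-Pearson interval 7.67 to 15.2), and 56 of 300 kept DMSO wells, which is 18.7% (14.4 to 23.5). These intervals cover the sampling of wells from 1 plate. With 1 plate per treatment the treatments could not be tested against each other. The members were chosen by values from the same reads, so every comparison with the other wells is a description. The plates held 17062599 reads (ISX-9) and 21398070 reads (DMSO). Median depth was 11067 nuclear reads (1584 genes) for ISX-9 members and 36002.5 reads (2635 genes) for DMSO members, against 24713 and 25329.5 reads in the other kept wells of the ISX-9 and the DMSO plate. The share of mitochondrial reads had a median of 31.7% in ISX-9 members and 28.3% in DMSO members, and 24.6% and 28.7% in the other wells of these plates. Reads of the ribosomal gene Rn45s had medians of 9.78% and 14.01% in ISX-9 and DMSO members, against 5.47% and 10.998% in the others. With Rn45s left out of the totals, members were 11.7% of ISX-9 and 23% of DMSO kept wells, with 166 genes higher and 698 lower at 2-fold in both plates. A gene without a read in the members was below 3.48 CPM in ISX-9 and below 1.21 CPM in DMSO, taking 3 counts as the limit. The counts are reads and not molecules, so Poisson intervals cover counting error only. In summed reads, fewer cells of a kind and less RNA per cell cannot be told apart.

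Muc2 ran in ISX-9 members from 2200 CPM to 12298 CPM with a median of 4772 CPM, and in DMSO members from 2053 CPM to 53643 CPM with a median of 3726 CPM. Members held 77.6% of all Muc2 reads of the kept ISX-9 wells with 7.29% of the nuclear reads, and 87.6% with 16.9% in the DMSO plate. The limit did not fall in a gap: 10 wells of the ISX-9 plate and 28 of the DMSO plate had between 1000 and 2000 CPM, and 12 ISX-9 members and 32 DMSO members had between 2000 and 4000 CPM. The highest wells below the limit stood at 1868 CPM (ISX-9) and 1991 CPM (DMSO). In DMSO the 8 members nearest the limit had medians of 4656 CPM for Tff3 and 259 CPM for Agr2, and the 11 wells just outside had 2689 CPM and 519 CPM. A single ISX-9 well and no DMSO well met the Muc2 limit but was left out for its Neurog3. Within the members Neurog3 reached at most 1391 CPM in ISX-9 and 1721 CPM in DMSO, and a Neurog3 read was found in 17 of 32 and in 27 of 56 members. Above 10000 CPM of Muc2 were 4 ISX-9 members and 9 DMSO members.

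The goblet label was checked against the markers that did not choose the wells. Tff3, the trefoil peptide packed with Muc2, had a median of 11214 CPM in ISX-9 members and 6814 CPM in DMSO members. Spink4, a small secreted protease inhibitor of goblet cells, stood at medians of 3981 and 5206 CPM in ISX-9 and DMSO members. Fcgbp, a mucus protein that binds Muc2, had 865 CPM in ISX-9 and 1694 CPM in DMSO, and Agr2, the ER disulphide isomerase needed for Muc2 folding, had 883 CPM in ISX-9 and 792 CPM in DMSO. All 4 of these markers reached 500 CPM in 16 of 32 ISX-9 members and in 32 of 56 DMSO members, and at least 2 of them in every ISX-9 member and in all but 2 DMSO members. Among the other kept wells all 4 reached 500 CPM in 6 of 258 (ISX-9) and 25 of 244 (DMSO). Tff3 overlapped most between members and the rest: it reached 1000 CPM in 32 of 32 and 54 of 56 members but also in 108 wells outside in ISX-9 and 101 in DMSO.

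**Figure D1:**
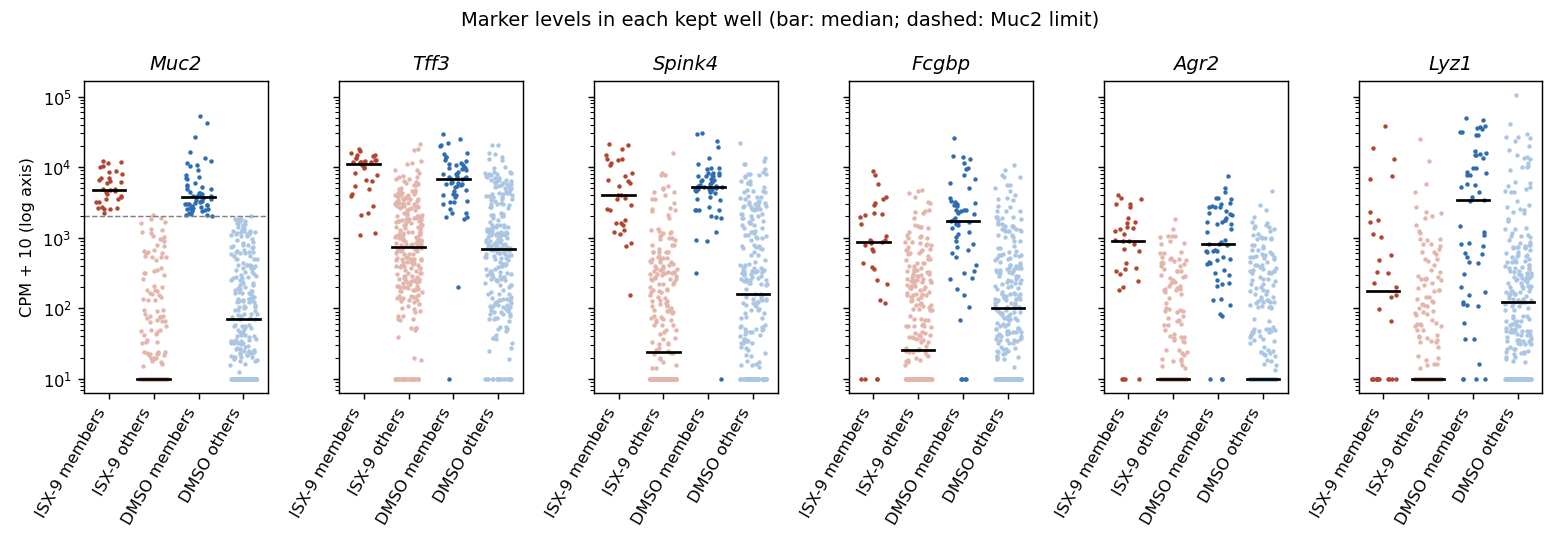
Level of 6 genes in each kept well, as CPM + 10 on a log axis; columns are members and other wells of the ISX-9 plate, then of the DMSO plate, and bars are medians. Muc2 separates members by the rule (dashed line, 2000 CPM; 1 ISX-9 well above it was left out for Neurog3), whereas Tff3 overlaps between members and others and Lyz1 runs from 0 to 37956 CPM in ISX-9 members and to 49663 CPM in DMSO members.

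Of the 5 markers, 3 had a promoter window in RefSeq (mouse build GRCm38.p6, 250 bases before to 50 after the gene's start). Those of Muc2 and Fcgbp, mucus partners that sit on the same chromosome and were both higher in members, are given with the E-box CAGCTG in capitals, a core of the kind bound by basic helix-loop-helix factors such as Atoh1. Muc2 is given at chr7:141690090-141690389 and Fcgbp at chr7:28070986-28071285, both on the plus strand.
Muc2: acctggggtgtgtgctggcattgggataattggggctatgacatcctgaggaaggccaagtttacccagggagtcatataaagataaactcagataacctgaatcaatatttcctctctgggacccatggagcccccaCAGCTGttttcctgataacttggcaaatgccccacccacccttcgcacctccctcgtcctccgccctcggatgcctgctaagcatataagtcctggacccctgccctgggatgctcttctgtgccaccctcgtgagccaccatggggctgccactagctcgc
Fcgbp: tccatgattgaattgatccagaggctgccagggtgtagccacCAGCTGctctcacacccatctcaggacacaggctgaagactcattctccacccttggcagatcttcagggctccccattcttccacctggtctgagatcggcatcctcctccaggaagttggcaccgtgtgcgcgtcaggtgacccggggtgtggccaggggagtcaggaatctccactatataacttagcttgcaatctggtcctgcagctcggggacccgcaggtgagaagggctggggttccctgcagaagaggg
The palindromic core lies 112 bases before the start of Muc2 and 208 bases before that of Fcgbp. It was found on either strand in the window of 4944 of 27025 genes, or 18.3%, and in 25 of the 116 genes with a window among those higher in members, or 21.6%, and a match is a description of letters only. The window of Agr2 and the others of the 6 goblet genes with a window did not hold it. A related core, CAGATG, was searched on both strands and was in neither window, while 19.2% of all genes held it.

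Across the transcriptome 9478 genes had at least 100 reads and a read in at least 10% of members or of the other wells. For each, reads were summed over wells and the log2 ratio of (CPM + 5), members over others, was taken in each plate, a scale that understates ratios of low genes. Members were at least 2-fold higher in both plates for 170 genes, or 1.79%, and at least 2-fold lower for 701 genes, or 7.4%. The median over all genes was -0.28, and median-of-ratios scaling placed it at -0.04 with 280 genes higher and 488 lower. The highest mean ratio was that of Zg16, a lectin of the mucus granule, at 7.62, followed by Muc2 at 5.25. Muc2 was part of the rule. Next came Capn9, a calpain protease of the gastrointestinal tract, at 4.27: it had 465.8 CPM in ISX-9 members and 374.3 CPM in DMSO members, against 21.6 and 13.04 CPM in the other wells of these plates. Clca3, a secreted mucus protease, stood at 3.94. Guca2a, which encodes the peptide guanylin, had 1560 CPM in ISX-9 members and 1786 CPM in DMSO members, against 38.2 and 293.4 CPM in the others, and a read in 21 of 32 and 41 of 56 members. The chemokine genes Ccl6 and Ccl9 had mean ratios of 3.88 and 3.80 and are related genes between which reads may be shared. Clec2h, a C-type lectin gene, stood at 2.99 but rested on 5 ISX-9 and 8 DMSO members.

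**Figure D2:**
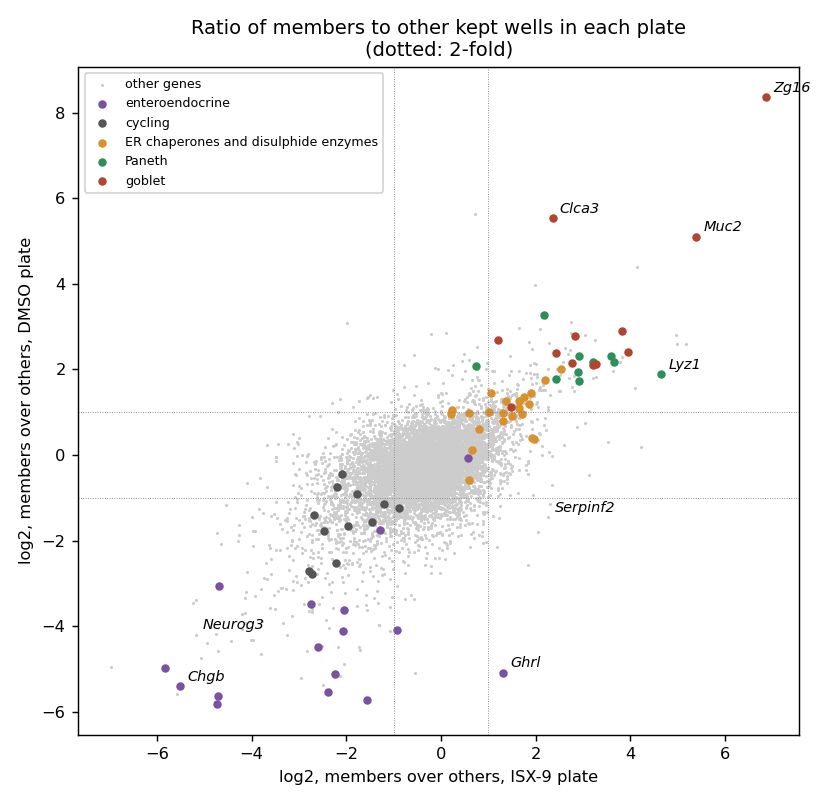
Log2 ratio of (CPM + 5), members over other kept wells, in the ISX-9 plate (x axis) and the DMSO plate (y axis) for the 9478 genes; colours mark 5 gene lists and dotted lines mark 2-fold. All 12 goblet genes (Muc2 by the rule) and 9 of 10 Paneth genes lie past 2-fold in the upper right. In the lower left 13 of 16 enteroendocrine and 8 of 12 cycling genes lie past 2-fold. Ghrl and Serpinf2 have opposite signs in the plates.

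Of the secreted mucus proteins 8 of 10 genes that passed the filter were higher in members in both plates and 1 was lower, with a list median of 3.07. Muc2 was higher by the rule. Besides Muc2 and the other markers above, the higher genes were Zg16, Clca3 and Retnlb, a goblet cell cytokine. Retnlb had 1062 CPM in ISX-9 members and 2279 CPM in DMSO members, against 106.8 and 350.4 CPM in the other wells. Dmbt1, a scavenger receptor protein of mucus, was lower, at 8.13 and 3.22 CPM in ISX-9 and DMSO members against 82.1 and 93.7 CPM in the others. Muc13, a mucin that stays in the membrane, had medians of 842 and 815 CPM in ISX-9 and DMSO members and mean log2 ratio 0.96, below 2-fold in both plates. The gel-forming mucin genes Muc5b and Muc6 did not pass the filter.

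Zg16 and Clca3 were not spread over the members. Zg16 had a median of 0 CPM in ISX-9 members and 8.08 CPM in DMSO members, and 1 well held 96.8% of its ISX-9 reads and another 50.8% of its DMSO reads. Either gene reached 1000 CPM in 2 of 32 ISX-9 members and in 8 of 56 DMSO members. In 3 DMSO wells Zg16 stood at 101608, 73889 and 53983 CPM, beside the highest Muc2 levels of the plate, 53643, 42680 and 26616 CPM. The same 3 wells had 144, 26.5 and 27.2 CPM of Lyz1, the lysozyme gene of Paneth cells. In the other 5 DMSO wells with Zg16 or Clca3 at this level, Lyz1 ran from 6.09 to 9731 CPM, and in the 2 ISX-9 wells it was 6829 and 18545 CPM. Without the well with the most reads of each gene, Zg16 had a ratio of 2.60 in ISX-9 and 7.87 in DMSO, and Clca3 lost its call, at -0.36 in ISX-9 and 5.45 in DMSO.

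Mucin O-glycosylation enzymes, which build the sugar chains of mucins step by step, had 12 of 24 genes higher, 0 lower and a median of 1.22. The initiating transferases Galnt7 and Galnt12 had 419.4 and 187.0 CPM in ISX-9 members and 347.0 and 131.9 CPM in DMSO members, against 86.8 and 36.9 CPM in other ISX-9 wells and 117.2 and 36.9 CPM in other DMSO wells. C1galt1c1, the chaperone of the core 1 enzyme, had a mean ratio of 1.23. The core 2 enzyme gene Gcnt3 stood at 623.8 CPM in ISX-9 members and 477.2 CPM in DMSO members against 215.8 and 176.2 CPM. The capping and extending enzymes A4gnt, St3gal1 and Chst4 had ratios of 2.84, 2.45 and 1.99, with a read in 5, 10 and 16 of 32 ISX-9 members and 17, 26 and 30 of 56 DMSO members. B4galnt2, whose sugar marks the intestinal surface in mice, was read in 25 of 32 and 43 of 56 members with a ratio of 1.34. Without the well with the most reads of each gene, the calls of B3gnt3, B3gnt7, C1galt1c1 and St3gal6 were lost, each below 2-fold in at least 1 plate.

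Secretory lineage transcription factors had 7 of 17 genes higher, 0 lower and a median of 0.95. Atoh1, which sets the secretory fate, had 364.8 CPM (Poisson interval 325.5 to 407.4) in ISX-9 members and 356.6 CPM (333.5 to 380.9) in DMSO members, against 24.9 and 87.3 CPM in other wells. It was read in 17 of 32 and 38 of 56 members. Gfi1, a repressor that keeps goblet and Paneth precursors from the endocrine fate, had 246.3 and 139.5 CPM in ISX-9 and DMSO members against 12.7 and 24.5 CPM. Spdef had 118.5 and 100.1 CPM in ISX-9 and DMSO members against 17.7 and 15.2 CPM, a mean ratio of 2.41. Klf4, known for goblet cell differentiation in the colon, had a ratio of 2.24, and Bhlha15 (Mist1), a factor of professional secretory cells, 2.33. Creb3l1, a membrane-bound factor of the secretory pathway, was the most abundant of the list's called genes, with medians of 1362 CPM in ISX-9 members and 952 CPM in DMSO members, and its relative Creb3l4 had a ratio of 2.15.

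**Figure D3:**
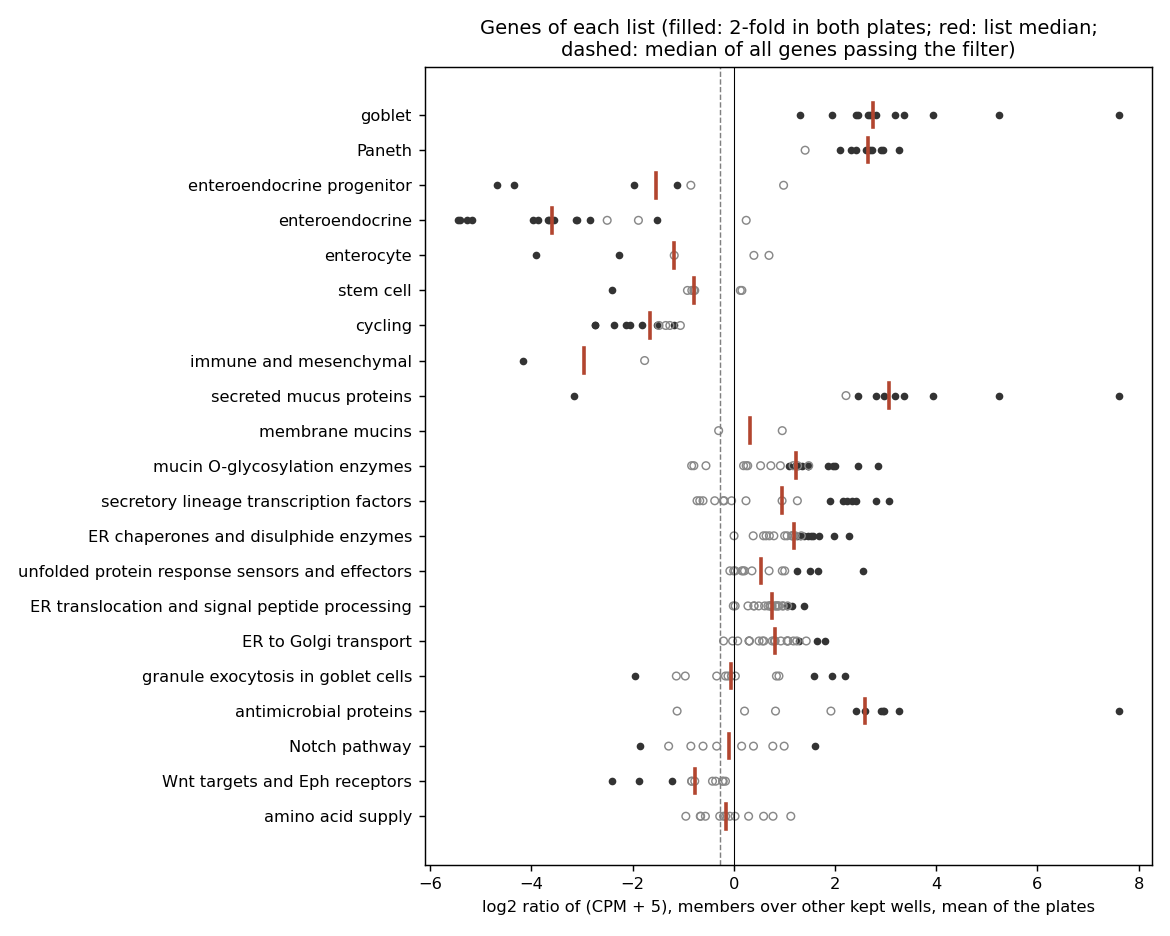
Log2 ratio of members to other kept wells (mean of the 2 plates) for each gene of 21 lists that passed the filter; filled points were at least 2-fold in the same direction in both plates, red bars are list medians and the dashed line is the median of all 9478 genes (-0.28). All 12 goblet genes (Muc2 by the rule) and 9 of 10 Paneth genes are filled on the right. On the left 13 of 16 enteroendocrine genes are filled.

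The ER machinery followed the same direction with smaller ratios. Of 22 chaperones and disulphide enzymes 9 were higher and 0 lower, with a median of 1.19. The disulphide isomerase genes Pdia5, P4hb and Pdia6 had ratios of 2.28, 1.55 and 1.52, the oxidase gene Qsox1 1.97 and Txndc5 1.68. P4hb was read in 29 of 32 and 50 of 56 members, at 1180 CPM in ISX-9 members and 1191 CPM in DMSO members, against 347.2 and 461.3 CPM in the others. Hspa5, the main ER chaperone BiP, had ratios of 1.51 in ISX-9 and 0.92 in DMSO and so missed the rule in DMSO. Of 14 genes of the unfolded protein response 4 were higher. Ern2 (IRE1 beta), the stress sensor particular to mucus-secreting epithelium, had 295.1 CPM in ISX-9 members and 420.1 CPM in DMSO members, against 43.96 and 70.3 CPM in the others, and was read in 26 of 32 and 48 of 56 members. The degradation factors Edem2 and Syvn1 had ratios of 1.66 and 1.25, and Edem1 had 1.91 in ISX-9 and 1.08 in DMSO. Of 23 genes of ER translocation and signal peptide processing 3 were higher (Sec11c at 1.39, Ssr4 at 1.15 and Rpn1 at 1.06), and of 23 genes of ER to Golgi transport 3 were higher (Copz2 at 1.81, Sec24d at 1.63 and Mia3 at 1.29, the cargo receptor TANGO1). The medians of these 2 lists were 0.76 and 0.80 with 0 genes lower, below 2-fold but above the all-gene median of -0.28. The calls of Dnajc3, Syvn1, Rpn1, Ssr4 and Mia3 were lost without the well with the most reads of each gene.

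Many chaperone genes carry an ER stress element, the site known to be bound by ATF6 with NF-Y, in their promoters. The element was searched on both strands as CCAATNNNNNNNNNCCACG and was found in the windows of 7 of 17 ER chaperone genes with a window, against 37 of 27025 genes, or 0.137%. The windows of Hspa5 (chr2:34771840-34772139, plus strand) and Pdia6 (chr12:17266339-17266638, plus strand) are given with the fixed bases of the element in capitals, since Hspa5 is its best-known carrier and Pdia6 was called in both plates.
Hspa5: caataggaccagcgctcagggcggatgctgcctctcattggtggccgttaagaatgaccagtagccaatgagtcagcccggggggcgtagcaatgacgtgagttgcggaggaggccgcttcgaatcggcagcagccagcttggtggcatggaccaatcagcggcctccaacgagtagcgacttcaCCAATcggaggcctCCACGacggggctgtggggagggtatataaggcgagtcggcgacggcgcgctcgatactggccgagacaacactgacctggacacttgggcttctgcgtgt
Pdia6: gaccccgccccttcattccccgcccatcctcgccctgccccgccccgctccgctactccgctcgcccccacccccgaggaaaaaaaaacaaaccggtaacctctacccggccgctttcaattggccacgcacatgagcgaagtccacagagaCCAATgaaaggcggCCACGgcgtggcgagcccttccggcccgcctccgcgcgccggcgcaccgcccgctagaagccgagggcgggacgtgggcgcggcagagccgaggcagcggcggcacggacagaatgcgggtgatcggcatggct
The element starts 65 bases before the start of Hspa5 and 98 bases before that of Pdia6. Within the list it did not go with the size of the ratio: the 7 genes with it had a median of 1.21 (0.38 to 1.52) and 2 calls, and the 10 genes without it a median of 1.24 (0.59 to 2.28) and 5 calls.

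The granule release and Notch lists had members called in both directions. Of 13 exocytosis genes 3 were higher, namely Rab27b at 2.20, Sytl2 at 1.95 and Rab27a at 1.58, which encode small GTPases of secretory granules and an effector. Marcks, an actin-binding substrate of protein kinase C, was lower at -1.96, and the list median was -0.05. Of 10 Notch pathway genes Dll3 was higher and Notch1 lower; the ligand gene Dll1 had 103.4 CPM in ISX-9 members and 66.3 CPM in DMSO members against 43.2 and 35.4 CPM, below 2-fold in DMSO. Without the well with the most reads of each gene the calls of Sytl2 (0.83 in ISX-9) and Dll3 (0.51 in DMSO) were lost. Of 11 Wnt targets and Eph receptors 0 were higher and 3 lower (Ascl2 at -2.40, Cd44 at -1.88 and Nkd1 at -1.22), with a list median of -0.77. Over all tested genes 1.79% were higher and 7.4% lower, and the 1 of 10 Notch genes lower is near that share. None of 13 amino acid supply genes was called.

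Paneth cell genes had ratios near those of goblet genes: 9 of 10 were higher, 0 lower and the median was 2.66, against 12 of 12 and 2.75 for the goblet list. The goblet list includes Muc2, which was higher by the rule. Without the well with the most reads of each gene, 10 goblet and 8 Paneth genes were higher. After thinning to 2000 reads the counts were 9 and 8. Itln1, the lectin intelectin, had medians of 3210 CPM in ISX-9 members and 10818 CPM in DMSO members and reached 1000 CPM in 23 of 32 and 53 of 56 members. Ang4, an antimicrobial ribonuclease, reached 1000 CPM in 17 of 32 and 33 of 56 members. Lyz1 reached 1000 CPM in 10 of 32 ISX-9 members and 32 of 56 DMSO members, against 12 of 258 and 43 of 244 other wells. Defa24, a defensin gene, had 374.1 and 416.5 CPM in ISX-9 and DMSO members against 25.2 and 87.8 CPM, and the matrix protease gene Mmp7, which activates defensins, had 925.8 and 374.7 CPM against 95.4 and 78.9 CPM. Of 11 antimicrobial genes 7 were higher, among them Pla2g2a, a secreted phospholipase, at 2015 and 1950 CPM in ISX-9 and DMSO members against 301.8 and 353.3 CPM. Mptx2 rested on 1 ISX-9 member and lost its call without it. Lysozyme, defensin, pentraxin and intelectin genes have near copies, and the split of reads between copies is uncertain.

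Enteroendocrine genes were mostly lower in members, and so were cycling genes as reported, with a count that depended on the processing. Of 16 enteroendocrine genes 13 were lower and 0 higher, with a median of -3.60; the list's summed level was 0.165% of reads in ISX-9 members and 0.0607% in DMSO members, against 1.97% and 2.43% in the others. Chgb, a granin, stood at 275.3 CPM in ISX-9 members and 299.5 CPM in DMSO members, against 12783 and 12898 CPM in the others. It had a read in 31 of 32 and 56 of 56 members at medians of 194 and 210 CPM, a low level in almost every member. The 8 lowest ratios among the tested genes were those of Scn3a, Tac1, Chgb, Neurod1, Chga, Tph1, Pak3 and Neurog3, from -5.96 to -4.69; Neurog3 was part of the rule. Any of Chga, Chgb, Neurod1 or Tph1 reached 1000 CPM in 2 ISX-9 members and 9 DMSO members. In 4 of these a hormone or granin gene exceeded 10000 CPM, and they were shallow, with 2398 to 5229 reads. One of them, an ISX-9 well of 3098 reads, had 7101 CPM of Muc2 beside 83602 CPM of Gcg, 74241 CPM of Cck and 42931 CPM of Ghrl. Whether such a well held more than 1 cell was not tested. Of 12 cycling genes 8 were lower and 0 higher (median -1.66), with Mki67 at 9.29 CPM in ISX-9 members and 12.9 CPM in DMSO members against 93.5 and 110.9 CPM. The count of lower cycling genes was 2 with Muc2 at 1000 CPM or more and 4 with the mean of the wells' CPM. It was 6 after thinning to 2000 reads and 11 without the well with the most reads of each gene. Of 7 stem cell genes Ascl2 was lower; Lgr5, the R-spondin receptor of stem cells, had 48.8 CPM in ISX-9 members and 208.7 CPM in DMSO members against 152.9 and 207.5 CPM, and reached 1000 CPM in 1 of 32 and 2 of 56 members against 2 of 258 and 3 of 244 other wells. The secretin gene Sct was read, after thinning to 2000 reads, in 21.9% of ISX-9 members and 16.1% of DMSO members against 17.4% and 6.15% of the others. Of 5 enterocyte genes Sis and Slc5a1 were lower. No tuft marker passed the filter, and Alox5ap was at 0 in both plates' members. Ptprc, Cd3e and Pdgfra, which define immune and mesenchymal cells, did not pass it, and Vim was lower at -4.16.

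Lyz1 varied widely among the members. It ran from 0 to 37956 CPM in ISX-9 members with a median of 165 CPM, and from 0 to 49663 CPM in DMSO members with a median of 3406 CPM. It exceeded 10000 CPM in 3 ISX-9 members and 16 DMSO members and was above Muc2 in 4 and 25. No Lyz1 read was found in 12 ISX-9 and 4 DMSO members. Between these lay 5 ISX-9 and 3 DMSO members with 1000 to 3000 CPM. Of the members with at least 1000 CPM, 5 of 10 in ISX-9 and 16 of 32 in DMSO had all 4 other goblet markers at 500 CPM or more, against 16 of 32 and 32 of 56 over all members. A low level of Lyz1 was also read in wells high in an enteroendocrine gene: of wells with Tph1, the serotonin synthesis enzyme gene, at 2000 CPM or more, Muc2 below 2000 CPM and Neurog3 below 3000 CPM, 7 of 32 in ISX-9 and 33 of 42 in DMSO had a Lyz1 read, at medians of 0 and 117 CPM and median depths of 16025 and 17086.5 reads. A Lyz1 level near 100 CPM in DMSO members is no higher than in those wells.

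Across the members of a plate the rank correlation of Lyz1 with Muc2 was 0.04 over 32 ISX-9 members and -0.02 over 56 DMSO members. Points of a plate share a library, and Lyz1 had a correlation with nuclear reads of 0.23 in ISX-9 and -0.04 in DMSO. Its correlation with the percent of Rn45s reads was -0.02 in ISX-9 and 0.34 in DMSO, which is as large as several of the gene correlations that follow. Among 1024 genes read in at least 50% of the members of each plate, the highest mean correlations with Lyz1 were those of Defa24 (0.51), Mmp7 (0.40), Itln1 (0.40), the colipase gene Clps (0.39), Ppp2ca (0.36), Pla2g2a (0.36), Nop56 (0.34) and Guca2a (0.34). The lowest were those of Fcgbp (-0.33), Ndrg1 (-0.28), Socs2, Srrm2, Plp2, Cdk5rap3, Adh1 and, after the predicted gene Gm10785, Tceb2. Fcgbp stood at -0.17 in ISX-9 and -0.49 in DMSO. Guca2a in DMSO had medians of 2060 CPM in the 18 members with the most Lyz1, 2405 CPM in the 20 in the middle and 3.04 CPM in the 18 with the least. Fcgbp ran the other way there, with medians of 955, 1747 and 3432 CPM. In the ISX-9 plate the 10 members with the most, the 12 in the middle and the 10 with the least Lyz1 had Fcgbp medians of 708, 973 and 1195 CPM and Guca2a medians of 927, 708 and 0 CPM. These ISX-9 groups differed in depth, with medians of 10387.5, 26122 and 7528 reads. Their summed Guca2a was 1161, 2292 and 663.7 CPM. Between the goblet markers the correlations ranged widely. In DMSO they were 0.83 between Tff3 and Fcgbp and 0.59 between Fcgbp and Agr2, but 0.19 between Agr2 and Spink4 and 0.09 between Muc2 and Spink4. In ISX-9 the same pairs had 0.36, 0.67, -0.01 and 0.32.

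**Figure D4:**
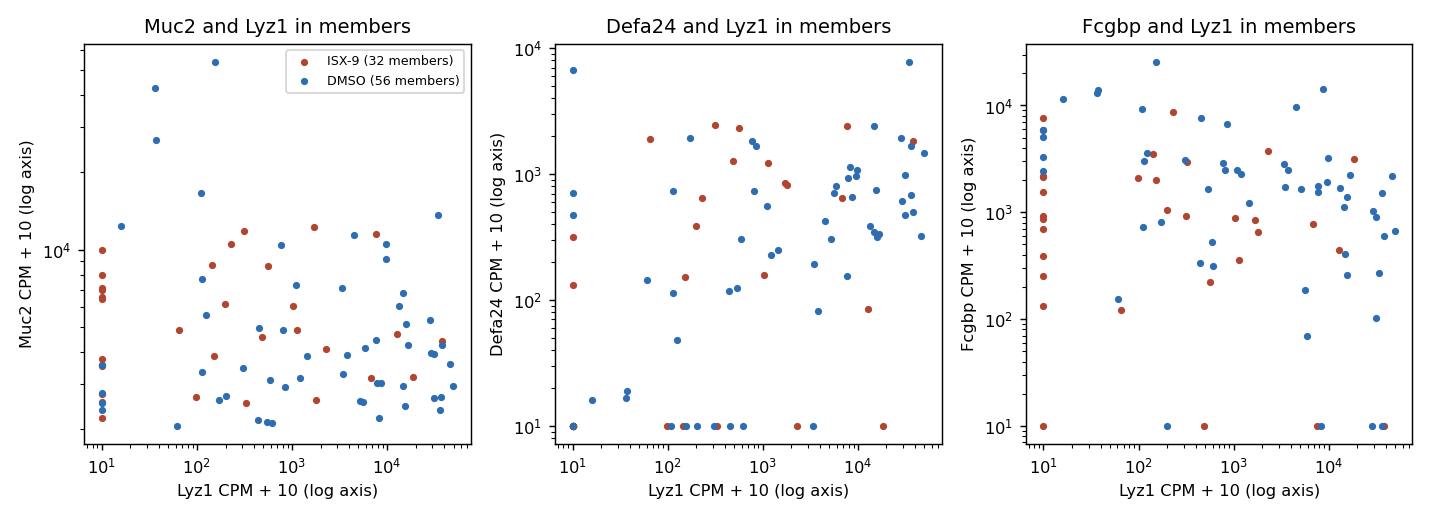
Muc2, Defa24 and Fcgbp (y axes) against Lyz1 (x axis) in the 88 members, each as CPM + 10 on log axes, ISX-9 in red and DMSO in blue. The rule cut Muc2 at 2000 CPM. Above that cut its rank correlation with Lyz1 is 0.04 in ISX-9 and -0.02 in DMSO. Defa24 tends to be higher where Lyz1 is higher (rank correlation 0.55 in ISX-9 and 0.47 in DMSO). The DMSO member with the most Fcgbp (25424 CPM) has 144 CPM of Lyz1. The 3 DMSO wells at the top of the Muc2 panel have Lyz1 at 144 CPM or less.

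The members were compared with 7 ISX-9 and 31 DMSO wells with Lyz1 at 2000 CPM or more, Muc2 below 2000 CPM and Neurog3 below 3000 CPM. In ISX-9, members had 6779 CPM of Itln1 and 374.1 CPM of Defa24, and the 7 Lyz1 wells had 11076 CPM and 445.1 CPM. In DMSO, members had 14176 CPM of Itln1 and 416.5 CPM of Defa24, and the Lyz1 wells had 12894 CPM and 413.4 CPM. In summed reads the 4 goblet markers other than Muc2 were higher in members in both plates. The median of Spink4 in ISX-9 went the other way, at 3981 CPM in members and 4386 CPM in the 7 Lyz1 wells. In ISX-9, Agr2 stood at 1860 CPM in members and 161.0 CPM in the Lyz1 wells, and Fcgbp at 2171 and 416.7 CPM. In DMSO, Agr2 stood at 1927 CPM in members and 357.6 CPM in the Lyz1 wells, Fcgbp at 4105 and 905.2 CPM, Tff3 at 7817 and 3214 CPM, and Spdef at 100.1 and 23.9 CPM. Ern2 stood at 420.1 CPM in members and 183.5 CPM in the Lyz1 wells of DMSO. Of the 4 markers Spink4 had the smallest ratio in DMSO, at 5122 and 3588 CPM. Tff3 in ISX-9 stood at 10169 CPM in members and 7274 CPM in the Lyz1 wells. Some genes named above for members were near in level in 1 plate. Bhlha15 had 122.2 CPM in members and 107.4 CPM in the Lyz1 wells of DMSO, but 117.3 and 0 CPM in ISX-9. Gcnt3 had 623.8 and 549.3 CPM in ISX-9, and 477.2 and 266.2 CPM in DMSO. Both sets were cut by their Muc2 and Neurog3 levels, and the second by Lyz1 as well, so these differences are a description without a test.

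Between the treatments, 4556 genes had at least 100 reads over the members and a read in at least 20% of the members of a plate. A gene could thus pass through only the plate where it was high. Of the 4556 genes 360, or 7.9%, were at least 2-fold higher in ISX-9 members than in DMSO members. At least 2-fold lower were 335, or 7.35%, and the median was 0.11. Median-of-ratios scaling gave 244 higher and 463 lower with a median of -0.06. Of 12 goblet genes 0 were higher and 3 lower (Clca3, Zg16 and Sytl2), and of 17 secretory factors none was called, with a median of 0.03. After thinning to 2000 reads 4 secretory factors were higher and 2 lower. With the mean of the wells' CPM 3 were higher and 1 lower. Agr2 had 1860 CPM in ISX-9 members and 1927 CPM in DMSO members, Spink4 4699 and 5122 CPM, Atoh1 364.8 and 356.6 CPM, and Creb3l1 2247 and 2308 CPM. Fcgbp had 2171 CPM in ISX-9 members and 4105 CPM in DMSO members, a log2 ratio of -0.92. Summed Muc2 was 5324 CPM in ISX-9 members and 8918 CPM in DMSO members, a log2 ratio of -0.74, and 1 well held 29.1% of the DMSO reads. The median of Muc2 over wells went the other way, at 4772 CPM in ISX-9 members and 3726 CPM in DMSO members. Muc2 also chose the members of both plates. Cultures were not replicated, and the 5 deepest ISX-9 members held 44.7% of that group's reads, against 27.1% for the 5 deepest DMSO members.

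Of the Paneth genes Lyz1, Itln1 and Nupr1 were lower and Mmp7 higher in ISX-9 members. Lyz1 stood at 3667 CPM in ISX-9 members and 8678 CPM in DMSO members, a log2 ratio of -1.24, and at 141.3 and 2339 CPM in the other wells, a log2 ratio of -4.00. It was read in 62.5% of ISX-9 members and 92.9% of DMSO members, and in 46.9% and 71.4% after each well was thinned to 2000 reads. Retnlb had 1062 CPM in ISX-9 members and 2279 CPM in DMSO members, and St3gal1 171.9 and 767.9 CPM. The lowest ratio was that of the pentraxin gene Mptx1, with 3.48 CPM in 2 ISX-9 members and 1621 CPM in 28 DMSO members (log2 ratio -7.58), followed by the defensin-like gene AY761184 with 4.65 and 742 CPM (-6.27). Next were Clca3 (-4.44), Chac1, a stress-induced enzyme of glutathione breakdown, at 8.13 and 200.6 CPM (-3.97), Rgs2 (-3.68), Acvr1c (-3.56), Atg7, Nupr1 (-3.11), Ddx60 (-2.98) and Eri1 (-2.76). Atg7, an autophagy gene that passed the filter through DMSO members alone, had no read in ISX-9 members and 45.4 CPM in 18 DMSO members. That level was 13.04 times the limit of 3 counts over ISX-9 members, a ratio of summed reads that does not cover the spread between wells. After thinning to 2000 reads it was read in 0% of ISX-9 members and 7.14% of DMSO members. Herpud1 and Asns, which like Chac1 belong to the stress response list, were lower too, so 3 of the list's 12 genes were lower and 0 higher, against 7.35% lower over all genes. The count was 1 with Muc2 at 1000 CPM or more and with a pseudocount of 20 CPM, and 5 with Muc2 at 5000 CPM or more.

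Among the genes highest in ISX-9 members, 3 had no read in DMSO members. All 3 passed the filter through the ISX-9 members alone, so their ratios are a description. H2-Ab1, of the MHC class II, stood at 191.7 CPM in 10 ISX-9 members, 158.9 times the limit of 3 counts over DMSO members. Hspb1, a small heat shock protein gene, had 124.3 CPM in 12 members, 103.1 times that limit. Crip2 had 122.0 CPM in 7 members, 101.1 times that limit. These multiples compare summed reads and cover neither the spread between wells nor the counting error of the ISX-9 level. All 3 genes had positive log2 ratios in the other wells too, at 3.16, 3.73 and 2.48. Reg3g, an antibacterial lectin, was read in 17 of 32 ISX-9 members and 4 of 56 DMSO members, at 118.5 and 3.62 CPM, and had a larger ratio in the other wells (4.81) than in members (3.84). Aplp1 and Rundc3a, which enteroendocrine cells also express, had 474.0 and 135.9 CPM in ISX-9 members and 29.8 and 5.23 CPM in DMSO members. Serpinf2, the gene of alpha-2-antiplasmin, had 246.3 CPM in ISX-9 members and 9.65 CPM in DMSO members, 8 wells each, with a log2 ratio of 4.10 in members and 0.39 in the others. Ctse, which encodes cathepsin E, had 154.5 CPM in 7 ISX-9 members and 6.03 CPM in 1 DMSO member. The trefoil gene Tff2 (4.14) and Snhg11 (4.05) held 79.6% and 71.03% of their ISX-9 reads in 1 well, and had ratios of 2.42 and 2.60 without the well with the most reads in each plate.

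Of 8 enteroendocrine genes that passed the filter in members, 5 were higher in ISX-9 members (Fev, Ghrl, Cck, Gcg and Sct) and 0 lower. Over all genes 7.9% were higher and 7.35% lower. The list had 2 genes higher and 2 lower with wells of at least 5000 reads and 1000 genes. It had 2 higher and 3 lower without the well with the most reads of each gene. In ISX-9, 1 member of 3098 reads had 74241 CPM of Cck, 83602 CPM of Gcg and 42931 CPM of Ghrl. Without the well with its most reads, Ghrl stood at 3.50 CPM in ISX-9 members. The filter sums reads over members, and whether Ghrl would pass it without that well was not tested. Without the well with the most reads of each gene Cck, Gcg and Ghrl lost the call and turned negative, at -0.44, -1.23 and -1.20. Fev, a factor of late endocrine precursors, kept it, at 125.5 CPM in ISX-9 members and 18.5 CPM in DMSO members (log2 ratio 2.47; 2.71 without those wells), against 788.9 and 524.8 CPM in the other wells, as did the secretin gene Sct at 158.0 and 51.1 CPM (1.54; 1.44).

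**Figure D5:**
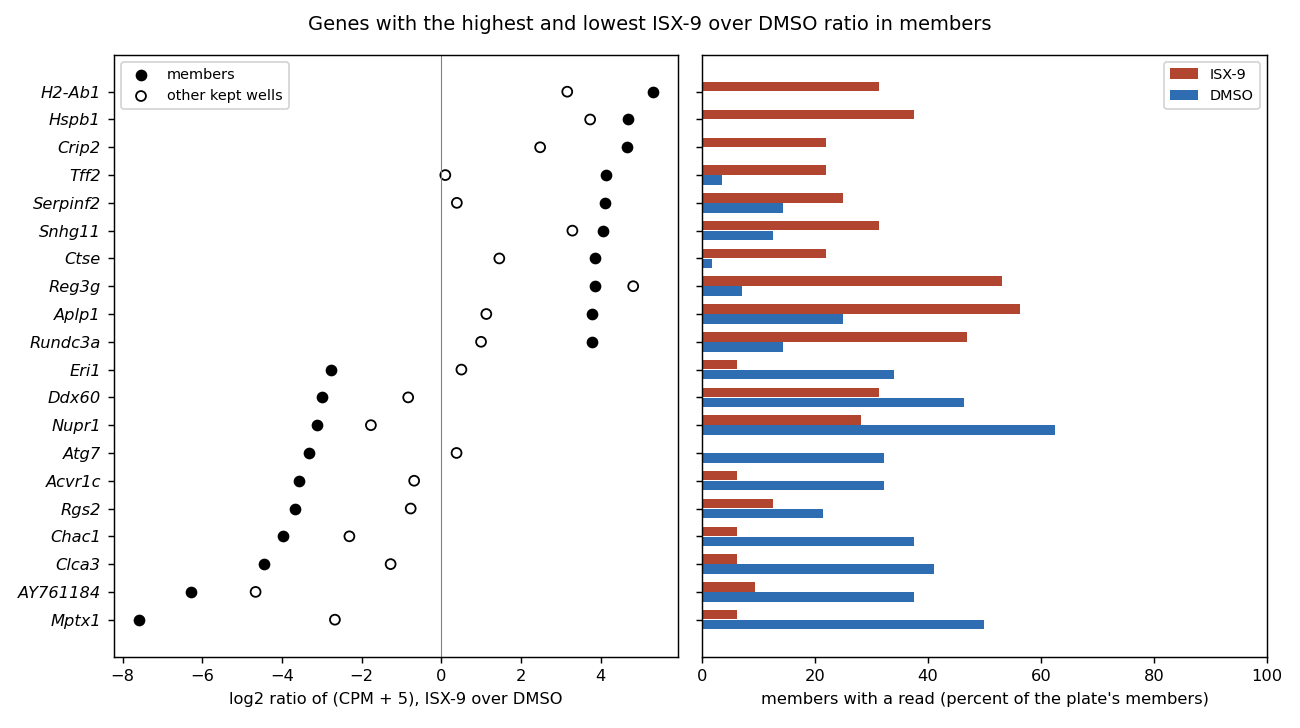
Left, log2 of the ISX-9 to DMSO ratio of (CPM + 5) in members (filled) and in the other kept wells (open) for the 10 genes highest and the 10 lowest in members. Right, percent of ISX-9 members (red) and DMSO members (blue) with a read; H2-Ab1, Hspb1 and Crip2 have none in DMSO members and Atg7 none in ISX-9 members.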

How the data were processed

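The authors deposited read counts per gene and well for 2 plates of 384 wells, 1 per treatment, per the labels' protocols made by SORT-seq with CEL-Seq2 primers. The submitters' processing notes name BWA, with no version, and hg19, while the rows carry mouse symbols; the sources used here do not say how reads were counted. The values are reads: the 4-base molecular barcode allows 256 combinations, and molecules were not analysed here. Spike-in and mitochondrial rows were left out, Rn45s stayed in the totals, and no doublet caller was run. Of 768 wells, 590 had at least 2000 reads and 500 genes and were kept. The plates share well barcodes by design: 225 positions were kept in both, and 3 of them were members in both.

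CPM was computed per well, and reads were summed over wells of a group and plate. Ratios are log2 of (CPM + 5); a gene was called at 2-fold or more, in both plates for members over others. Genes needed 100 reads and a read in 10% of members or others (for ISX-9 over DMSO, 20% of the members of a plate). No test was made. Intervals are exact Poisson for levels and Clopper-Pearson for shares, at 95%, and a gene at 0 was given a limit of 3 counts over the group. Correlations are Spearman's over the members of a plate. Paralogous genes (defensins, lysozymes, pentraxins, Ccl6 and Ccl9) may share reads, and Clca3 is the symbol in the files.

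The members, the 22 gene lists (299 genes, 6 without a row) and the alternatives were chosen with earlier results of these data known; leaving out the well with the most reads of each gene was added after seeing the data. Named genes are the 12 highest and 8 lowest ratios of members over others, the 10 highest and 10 lowest of ISX-9 over DMSO, up to 4 per list with the largest ratios, and the 8 highest and 8 lowest correlations with Lyz1, without ribosomal, Gm and Rik genes and Rn45s. Other list genes are named to complete a count and were chosen after their values were seen. Python 3.11.15, numpy 2.4.6, pandas 2.3.3, scipy 1.17.1 and matplotlib 3.10.9 were used, and the summing and calling steps were tested on simulated counts.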

Additional observations from a re-analysis of the deposited data

Results flagged for a closer look

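Ghrl, the ghrelin gene, had opposite signs in the plates: its log2 ratio of members over others was 1.32 in ISX-9 and -5.09 in DMSO. One shallow ISX-9 member held 97.8% of its ISX-9 member reads, and without the well with the most reads in each group the ratios were -1.75 and -4.55. Serpinf2 had 2.27 in ISX-9 and -1.45 in DMSO, and 2.02 and -1.81 without those wells, with reads in 8 members of each plate. With 1 plate per treatment these differences were not tested. Of the wells below the depth limits, 7 of 94 in ISX-9 and 11 of 84 in DMSO met the Muc2 and Neurog3 limits. These 7 and 11 wells held 42 and 54 Muc2 reads in all, at median depths of 1582 and 558 reads.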

How the results depend on the processing

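Members made up 4.83% of the kept wells in ISX-9 and 6% in DMSO with Muc2 at 5000 CPM or more, and 28% in DMSO at 1000 CPM or more. Genes higher in members numbered 170 as reported, 103 with a pseudocount of 20 CPM and 280 with median-of-ratios scaling. Genes lower in members numbered 701 as reported, 1220 with Muc2 at 5000 CPM or more, 255 with a pseudocount of 20 CPM, 1366 with wells thinned to 2000 reads and 1294 without the well with the most reads of each gene. Genes higher in ISX-9 members numbered 360 as reported, 229 with a pseudocount of 20 CPM, 1614 with no filter on low genes and 847 after thinning. Genes lower in ISX-9 members numbered 335 as reported, 615 with the mean of the wells' CPM, 190 with a pseudocount of 20 CPM, 1156 with no filter, 960 after thinning and 535 without the well with the most reads of each gene. The larger pseudocount shrinks ratios of low genes by construction and the absent filter adds genes; for the others the cause was not tested. After thinning, 97 of the 170, 417 of the 701, 218 of the 360 and 223 of the 335 genes were called again. With the mean of the wells' CPM these counts were 113, 435, 209 and 251. The mean correlation of Muc2 with Lyz1 was 0.01 as reported and -0.06 to 0.07 under the alternatives. Of 1524 recomputed ratios of named genes, 1022 stayed within the counting interval, 502 did not, and 0 were called with the opposite sign. Cck, Gcg and Ghrl were not among these named genes. Their called ISX-9 over DMSO ratios turned negative without the well with the most reads of each gene, at -0.44, -1.23 and -1.20. Without the well with the most reads of each gene, 13 of 109 calls of named or listed genes were lost for members over others and 3 of 49 for ISX-9 over DMSO. No paired analysis was possible because each treatment has 1 plate. The shallower ISX-9 members limit what can be seen: a gene without a read there may reach 3.48 CPM.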
